A study of Mus musculus with 6 samples.

Results

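The G2/M and mitosis genes described here are 32 genes that encode the cyclins, kinases, kinetochore, spindle and cytokinesis proteins of cell division, picked by symbol from a table of 24062 gene symbols. All 32 were found, and all 32 were among the 15742 genes with enough reads to test. They were read in 6 RNA-seq libraries, 1 mouse each, of bone marrow cells sorted for Kit, the receptor of stem cell factor, which marks blood stem and progenitor cells; the series description also calls the cells lineage-negative. In the knockout (KO) group, 3 mice carried Mx1-Cre, an interferon-inducible Cre that also acts outside blood cells, together with floxed alleles of Ints11, and the wild-type (WT) group held 3 littermates. All mice were C57BL/6, and cells were taken 4 days after poly(I:C), an RNA mimic that induces interferon and thereby Mx1-Cre. The labels used here do not say whether the WT littermates carried Mx1-Cre, nor the age of the mice. Ints11 encodes the catalytic subunit of Integrator, which cuts nascent RNA. The comparison asks how the transcripts of the division machinery differ between progenitors of the genotypes.

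A cell enters mitosis when cyclin A and cyclin B activate the kinase CDK1, helped by the phosphatase CDC25C and the kinases PLK1 and Aurora A. The spindle checkpoint then holds the cell until kinetochores are attached, and the anaphase-promoting complex with CDC20 ends the arrest by degrading cyclin B and securin. Transcripts of these proteins are low in quiescent and G1 cells and peak in G2 and M. Their promoters are known for CCAAT boxes, bound by NF-Y, and for a cell-cycle genes homology region (CHR), bound by the MuvB complex, which represses with DREAM partners in resting cells and activates with B-MYB and FOXM1 in dividing cells.

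Total counts were 124074531 to 166860739 per library, and single genes of the 32 held 3426 to 292722 counts in a library. Levels (CPM) are counts per 1000000 counts of the TMM-scaled library, a ± after a level is the SD over the 3 mice of a group, and libraries are named by genotype and mouse number. Ints11, listed as Cpsf3l, was at 81.7 ± 9.59 CPM in WT and 60.96 ± 3.08 CPM in KO libraries, a log2 change of -0.42 ± 0.10 (SE) with a Benjamini-Hochberg adjusted p of 0.0174 by edgeR's quasi-likelihood test. Which exons were floxed is not given here, so the level checks the labels only in part. Kit was at 199 to 238 CPM in every library. The summed level of 12 mature neutrophil markers was 12413 to 38980 CPM in WT and 46778 to 61310 CPM in KO libraries, and 4 of the 12 passed the test as higher. Markers of granulocyte-macrophage progenitors summed to 16894 to 22309 CPM in WT and 8853 to 10754 CPM in KO libraries, with 5 of 7 lower and 1 higher. Stem cell markers had 7 of 8 higher, with sums of 133 to 146 CPM in WT and 113 to 186 CPM in KO libraries. The remaining stem cell marker, Ly6a, was the largest part of these sums and went the other way without passing. Its means were 87.9 CPM in WT and 55.5 CPM in KO libraries (log2 change -0.66, adjusted p = 0.0607 in edgeR). Megakaryocyte markers had 3 of 5 higher, with sums of 40.1 to 59.4 and 92.3 to 128 CPM. Of the stroma and endothelium markers 3 of 7 were higher (sums of 82.8 to 96.3 and 95.7 to 175 CPM). T and NK cell markers had 2 of 7 higher and 1 lower (267 to 304 and 209 to 227 CPM). The T and NK sum was mostly Nkg7, the marker called lower, with means of 276 CPM in WT and 197 CPM in KO libraries. The other T and NK markers had positive log2 changes, from 0.25 (Cd4) to 2.17 (Cd3g). Of the macrophage markers 1 of 6 was higher, of the Kit progenitor markers 1 of 7 was higher, of the erythroid markers 1 of 10 was lower, and of the B and lymphoid markers 0 of 7 passed. The sums of the neutrophil, granulocyte-macrophage, megakaryocyte and T and NK lists did not overlap between the genotypes, and the part of these cell types in the changes below was not tested. In bulk RNA, fewer dividing cells and less RNA per dividing cell cannot be told apart.

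Of the 32 genes, 12 fell and 0 rose in KO libraries at an adjusted p under 0.05, where 19.9% of all tested genes were called lower and 16.0% higher. The 12 were Bub1, Ccnb2, Hmmr, Birc5, Bub1b, Bora, Ccnb1, Aurkb, Cdca3, Ect2, Top2a and Cdc20. The median log2 change of the 32 was -0.16, against 0.01 over all tested genes. The genes were well expressed, with means of 26.6 to 1887 CPM, and among the 6533 tested genes within that range 35.0% were called lower and 8.80% higher, with a median of -0.17. In either direction 35.9% of all tested genes and 43.8% of those in the range were called. The count of 12 of 32 (37.5%) lower was thus near the share at this level of expression. In 19 of the 32, each KO library was lower than each WT library, against 28.4% of all tested genes and 46.7% of those in the same range, and in none of the 32 was each KO library higher, against 25.6% and 13.9%. The changes were small: the largest drop, in Bub1, left 62.8% of the WT level, and the other called genes kept 73.6% to 85.8%. Standard errors of the log2 change were 0.06 to 0.13. The number called depended on scaling and on single libraries. Upper-quartile factors left 3 lower, library totals 5, and a low-level filter of 1 CPM in 3 libraries 7. Of all tested genes, 12.3%, 14.1% and 19.7% were called lower under these settings. The count was 3 without KO_340, 3 without KO_345, 4 without KO_339, 5 without WT_344, 7 without WT_343 and 14, with 1 higher, without WT_341. In the same order, 10.4%, 10.3%, 7.95%, 11.5%, 15.1% and 26.6% of all tested genes were called lower, so the number of calls moved over all genes too.

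**Figure D1:**
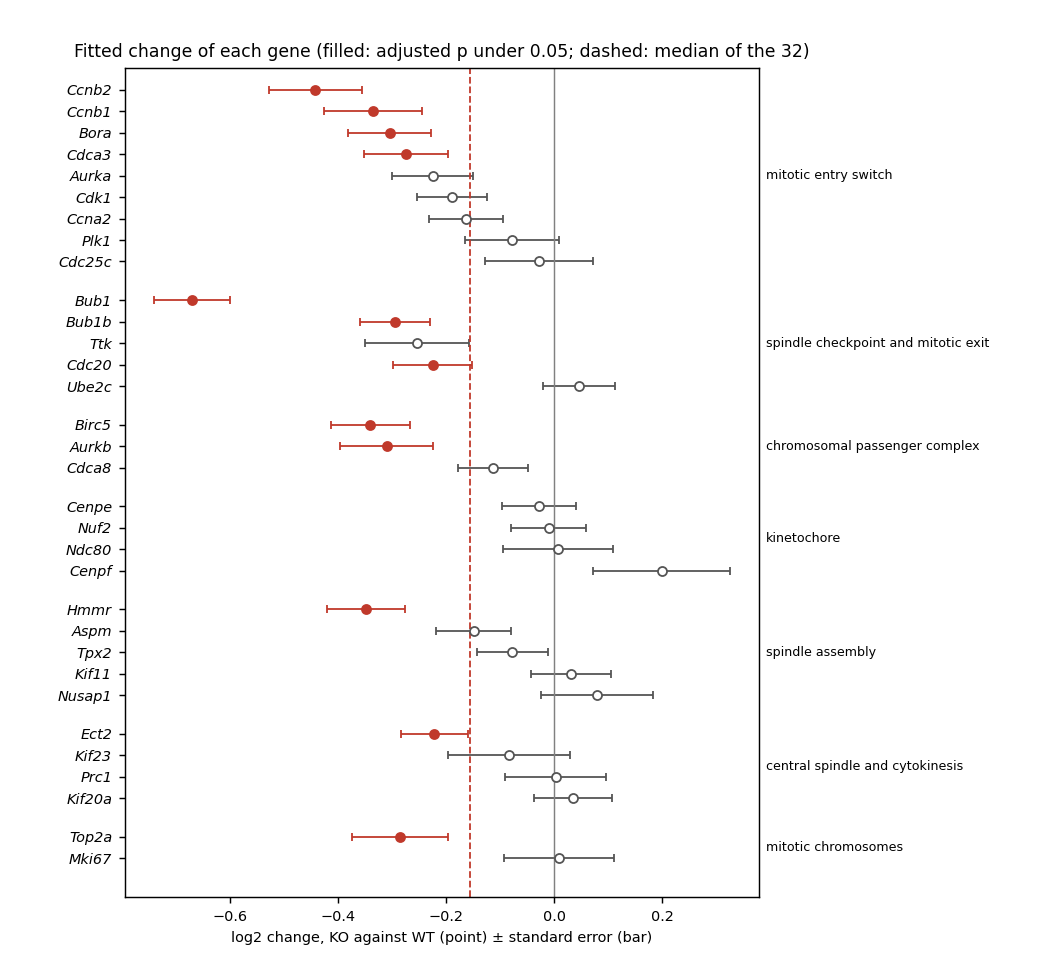
Fitted log2 change, KO against WT, of each of the 32 genes with its standard error (bar), grouped by role; filled points passed an adjusted p of 0.05 and the dashed line is the median of the 32. The 12 filled points lie to the left of 0, from -0.67 for Bub1 to -0.22 for Ect2, and the 4 kinetochore genes lie between -0.03 and 0.20.

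Promoters are shown for the 3 genes with the smallest and the 3 with the largest adjusted p that have an entry in the RefSeq table, so that the sequences of genes that moved and did not move can be compared. Each runs from 250 bases before the RefSeq start site to 30 bases from it on (GRCm38.p6, the assembly of mm10), 5′ to 3′ on the gene's strand. Capitals mark CHR motifs (TTTGAA or TTCGAA, either strand) and CCAAT boxes (CCAAT, either strand).
Bub1 (chr2:127831830-127832109, reverse strand): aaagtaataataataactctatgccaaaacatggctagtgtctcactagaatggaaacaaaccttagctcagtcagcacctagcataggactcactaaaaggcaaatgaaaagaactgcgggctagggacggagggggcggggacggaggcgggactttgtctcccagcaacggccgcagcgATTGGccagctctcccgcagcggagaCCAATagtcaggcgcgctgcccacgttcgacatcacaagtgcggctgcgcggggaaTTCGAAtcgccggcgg
Ccnb2 (chr9:70421525-70421804, reverse strand): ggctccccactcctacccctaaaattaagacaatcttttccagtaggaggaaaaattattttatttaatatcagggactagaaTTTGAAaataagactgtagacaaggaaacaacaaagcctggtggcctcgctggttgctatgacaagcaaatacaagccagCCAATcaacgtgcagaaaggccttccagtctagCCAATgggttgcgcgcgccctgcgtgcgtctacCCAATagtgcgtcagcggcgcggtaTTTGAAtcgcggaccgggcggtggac
Hmmr (chr11:40733408-40733687, reverse strand): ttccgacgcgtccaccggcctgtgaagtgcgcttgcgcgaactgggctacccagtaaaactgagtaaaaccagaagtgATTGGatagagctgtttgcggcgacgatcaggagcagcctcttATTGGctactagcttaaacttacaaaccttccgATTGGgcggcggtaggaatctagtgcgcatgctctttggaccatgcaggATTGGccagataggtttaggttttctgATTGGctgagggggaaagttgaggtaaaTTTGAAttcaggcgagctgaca
Prc1 (chr7:80294201-80294480, forward strand): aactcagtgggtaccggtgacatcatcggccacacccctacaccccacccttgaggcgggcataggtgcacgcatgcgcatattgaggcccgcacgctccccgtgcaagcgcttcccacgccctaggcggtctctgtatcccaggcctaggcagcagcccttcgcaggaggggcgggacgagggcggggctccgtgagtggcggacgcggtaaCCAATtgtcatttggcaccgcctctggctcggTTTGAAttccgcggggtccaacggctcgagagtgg
Ndc80 (chr17:71526828-71527107, reverse strand): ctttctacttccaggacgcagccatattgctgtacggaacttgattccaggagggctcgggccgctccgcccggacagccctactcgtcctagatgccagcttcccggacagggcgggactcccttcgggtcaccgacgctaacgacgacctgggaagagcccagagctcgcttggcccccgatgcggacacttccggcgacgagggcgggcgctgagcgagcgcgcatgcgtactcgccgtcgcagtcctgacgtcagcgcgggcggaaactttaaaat
Mki67 (chr7:135716350-135716629, reverse strand): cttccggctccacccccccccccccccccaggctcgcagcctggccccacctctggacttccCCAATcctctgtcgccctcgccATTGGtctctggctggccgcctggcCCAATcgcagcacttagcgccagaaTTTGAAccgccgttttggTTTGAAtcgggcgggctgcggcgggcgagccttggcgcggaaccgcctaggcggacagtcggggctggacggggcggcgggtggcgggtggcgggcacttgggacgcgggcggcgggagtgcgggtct
Bub1, Ccnb2 and Hmmr, which fell, and Prc1, which did not pass, each carry a CHR motif within 20 bases of the start and at least 1 CCAAT box upstream of it. The Mki67 window has 2 CHR motifs, starting 116 and 98 bases before the start, and 3 CCAAT boxes, and the Ndc80 window has neither motif.

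Over the 26 of 32 genes with a promoter in the RefSeq table, 16 (61.5%) had a CHR motif between 100 bases before the start and 30 bases from it on, against 8.85% of 27025 genes with a promoter in that table. CCAAT boxes stood anywhere in the window in 22 of 26 (84.6%), against 39.7% of all genes, and 16 genes (61.5%) had both a CHR motif near the start and a CCAAT box, against 3.37%. A CHR motif near the start was found in 6 of 10 genes called lower and in 10 of 16 not called. Ect2, which fell, was counted through another listed start site, and at its first the CHR motif began 114 bases before the start. Birc5, which fell, and Nuf2, Ndc80 and Nusap1, which did not pass, had neither motif in this window. A match of letters is a description and does not show binding.

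**Figure D2:**
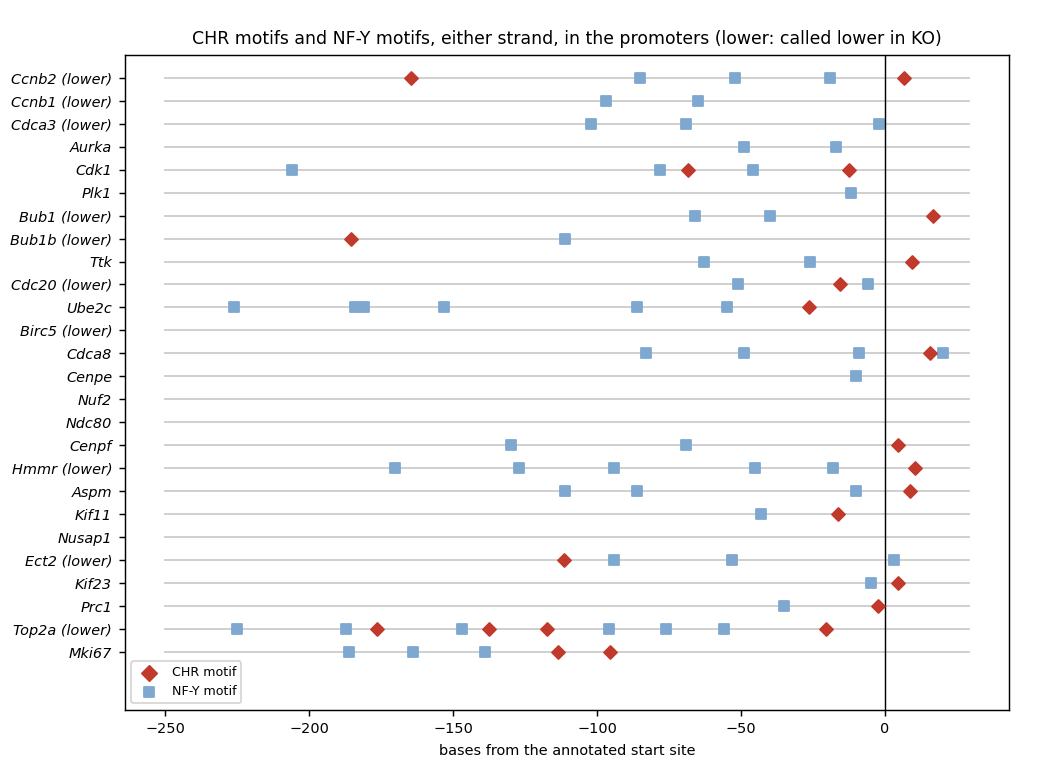
Position of CHR motifs (diamonds) and NF-Y motifs, the CCAAT boxes (squares), in bases from the annotated start site, in 26 promoters ordered by role; the grey line is the window searched. Only the first listed start site of each gene is drawn. Some genes called lower and some not called carry both kinds of motif close to the start. Others lack a CHR motif there, and the rows of Birc5, Nuf2, Ndc80 and Nusap1 are empty.

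Among the 9 genes of the switch into mitosis, 4 fell, 5 did not pass, and 9 of 9 had a negative log2 change (median -0.22). Of the 6533 tested genes in the CPM range of the 32, 4531 had a negative change and 35.0% were called lower. Ccnb2, which encodes cyclin B2, a CDK1 activator held at the Golgi, was at 119, 117 and 111 CPM in WT_341, WT_343 and WT_344 and at 92.9, 85.6 and 77.0 CPM in KO_339, KO_340 and KO_345. All KO libraries were below all WT libraries, and the log2 change was -0.44 ± 0.09 (SE; adjusted p = 0.00994, edgeR's quasi-likelihood test). Ccnb1, the gene of the main mitotic cyclin, was at 147, 169 and 149 CPM in WT and 129.5, 127 and 111 CPM in KO libraries, again without overlap (log2 change -0.34 ± 0.09, adjusted p = 0.0266 in edgeR). Cyclin B1 and cyclin B2 transcripts therefore fell together. Bora, an activator of Aurora A that primes PLK1 before mitosis, was at 75.6, 74.5 and 66.5 CPM in WT and at 59.2, 59.0 and 57.2 CPM in KO libraries (log2 change -0.30). Cdca3, which encodes an F-box-like protein linked to the destruction of the CDK1 inhibitor WEE1, went from 115 ± 2.65 to 95.2 ± 7.27 CPM (log2 change -0.27). The adjusted p of Bora was 0.0214 and that of Cdca3 0.0303 in edgeR.

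The partners of these genes in the switch did not pass the test. Cdk1, the mitotic kinase itself, was at 201, 204 and 200.3 CPM in WT and 185, 176 and 170.4 CPM in KO libraries (log2 change -0.19, adjusted p = 0.0556 in edgeR). Aurka, the gene of Aurora A, had a log2 change of -0.22 (adjusted p = 0.0514 in edgeR) and Ccna2, the gene of cyclin A2, of -0.16 (adjusted p = 0.101 in edgeR). For Cdk1, Aurka and Ccna2 all 3 KO libraries were below all 3 WT libraries. The same held for 46.7% of tested genes in the CPM range of the 32 and 28.4% of all tested genes. Plk1, the gene of Polo-like kinase 1, was at 92.5, 94.7 and 112 CPM in WT and 92.9, 95.3 and 94.9 CPM in KO libraries, so the groups overlapped and WT_344 alone was high. Cdc25c, the gene of the phosphatase that activates CDK1, was the least abundant of the 32, at 26.9 ± 2.77 and 26.3 ± 0.794 CPM.

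**Figure D3:**
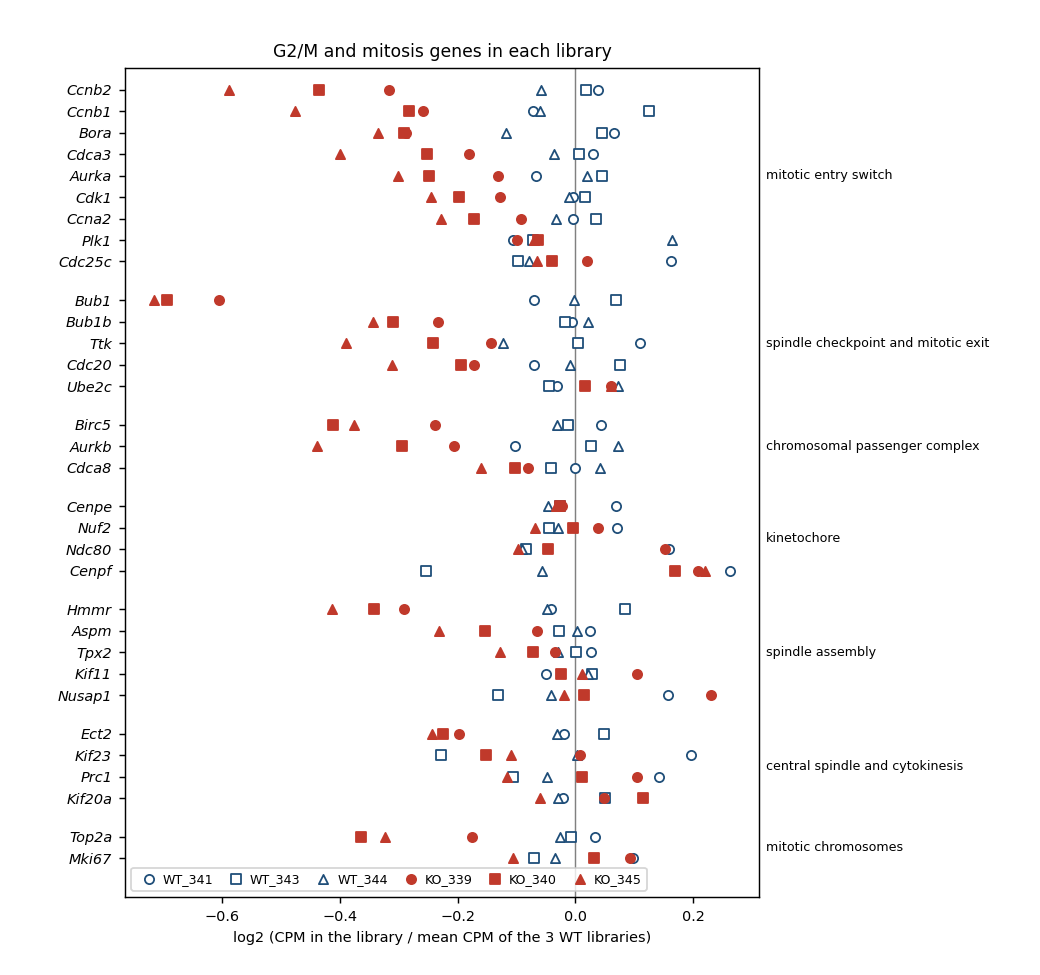
Level of each of the 32 genes in each library, as log2 of its CPM over the mean of the 3 WT libraries (0 on the x axis); open symbols are WT and filled symbols KO libraries. Bub1 stands furthest left in all 3 KO libraries, KO_339 lies to the right of KO_345 for most genes, and the Cenpf, Kif23 and Nusap1 values of the WT libraries are widely spread.

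The spindle checkpoint genes held the largest change. Bub1, a kinase that recruits checkpoint proteins and shugoshin to the kinetochore, was at 138, 152 and 144 CPM in WT and at 95.0, 89.3 and 88.0 CPM in KO libraries. The gap between the lowest WT and the highest KO library was wider than the spread within either group, and the log2 change was -0.67 ± 0.07 (SE; adjusted p = 0.00251, edgeR's quasi-likelihood test). Bub1 lies on chromosome 2, positions 127801122 to 127831865, on the reverse strand (GRCm38). Bub1b, whose protein BUBR1 inhibits the anaphase-promoting complex as part of the mitotic checkpoint complex, fell less, at 212, 210.3 and 216 CPM in WT and 181, 172 and 168 CPM in KO libraries (log2 change -0.29 ± 0.06, adjusted p = 0.0143 in edgeR). The count ratio of Bub1 to Bub1b within a library, which no scaling changes, was 0.649 to 0.720 in WT and 0.520 to 0.525 in KO libraries, without overlap. Ttk, the gene of the upstream checkpoint kinase MPS1, was at 62.1 ± 4.99 and 52.1 ± 4.42 CPM (log2 change -0.25, adjusted p = 0.0734 in edgeR). Cdc20, the activator of the anaphase-promoting complex that the checkpoint holds back, was at 131 ± 6.66 and 112 ± 5.71 CPM and passed narrowly (log2 change -0.23, adjusted p = 0.0486 in edgeR). Ube2c, the ubiquitin-conjugating enzyme that works with the same complex, was at 80.2, 79.4 and 86.1 CPM in WT and 85.4, 82.9 and 85.4 CPM in KO libraries, so its groups overlapped.

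Of the chromosomal passenger complex, which corrects faulty kinetochore attachments and steers cytokinesis, 2 of 3 genes fell. Birc5, which encodes survivin, was at 114, 109 and 108 CPM in WT and 93.5, 83.0 and 85.0 CPM in KO libraries (log2 change -0.34 ± 0.07, adjusted p = 0.0135 in edgeR). Aurkb, the kinase of the complex, was at 113, 123 and 127 CPM in WT and 105, 98.9 and 89.6 CPM in KO libraries (log2 change -0.31 ± 0.09, adjusted p = 0.0291 in edgeR). Cdca8, which encodes the borealin subunit, was at 102 ± 2.92 and 94.3 ± 2.70 CPM (log2 change -0.11, adjusted p = 0.201 in edgeR), and its groups too did not overlap. Cdca8 thus did not pass beside its called partners, its sign turned with upper-quartile factors (0.021), and the difference between the subunits was not tested.

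None of the 4 kinetochore genes passed the test, with a median log2 change of -0.0017. Of tested genes in the CPM range of the 32, 35.0% were called lower and 8.80% higher, and 4 genes are too few to compare with these shares. Nuf2 and Ndc80, whose proteins form the microtubule-binding arm of the NDC80 complex, had means of 91.6 ± 4.05 and 91.0 ± 3.38 CPM (Nuf2) and 78.5 ± 7.93 and 78.9 ± 7.32 CPM (Ndc80) in WT and KO libraries. Their log2 changes of -0.01 ± 0.07 and 0.01 ± 0.10 (SE) were within the error. Cenpe, a kinetochore kinesin that brings chromosomes to the metaphase plate, was at 306, 287 and 283 CPM in WT and 288, 287 and 285 CPM in KO libraries. Cenpf, a large outer kinetochore protein, had the highest log2 change of the 32 (0.20 ± 0.13, adjusted p = 0.245 in edgeR). Its WT libraries held 243, 170.1 and 195 CPM and its KO libraries 234, 228 and 236 CPM, so WT_341 lay above all KO libraries and the other WT libraries below them. Without WT_341, Cenpf passed as higher (log2 change 0.34, adjusted p = 0.0102 in edgeR), and when the neutrophil marker level was a covariate its log2 change was -0.12 (adjusted p = 0.363 in edgeR).

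Of the 5 spindle assembly genes, Hmmr alone passed. Hmmr, a spindle protein that helps focus microtubules at the poles, was at 147, 160.1 and 146 CPM in WT and 123, 119 and 113 CPM in KO libraries, without overlap (log2 change -0.35 ± 0.07, adjusted p = 0.0119 in edgeR). Tpx2, which activates Aurora A on the spindle, was at 237 ± 4.58 and 225 ± 7.32 CPM, and Aspm, a spindle pole protein, at 191 ± 3.56 and 172 ± 9.90 CPM. Tpx2 and Aspm did not pass, with adjusted p-values of 0.375 and 0.129 in edgeR. Kif11, the kinesin that pushes the spindle poles apart, was at 386 ± 11.6 and 395 ± 18.5 CPM, and Nusap1, which bundles spindle microtubules, at 132 ± 13.8 and 139.7 ± 13.3 CPM. The Kif11 and Nusap1 groups overlapped.

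Of the 4 central spindle and cytokinesis genes, Ect2, the exchange factor that activates RhoA at the cleavage site, fell from 161 ± 4.81 to 138 ± 2.27 CPM (log2 change -0.22 ± 0.06, adjusted p = 0.0304 in edgeR). Prc1, which bundles the microtubules of the central spindle, was at 179, 151 and 157 CPM in WT and 175, 164 and 150.0 CPM in KO libraries. Kif23, a motor subunit of centralspindlin, was at 139 ± 20.3 and 132 ± 7.65 CPM, and Kif20a, the kinesin that carries the passenger complex to the midzone, at 127 ± 3.89 and 130.1 ± 7.89 CPM. The groups of Prc1, Kif23 and Kif20a overlapped.

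The proliferation markers split. Mki67, the gene of the chromosome coat protein Ki-67, was at 2014, 1793 and 1837 CPM in WT and 2007, 1922 and 1748 CPM in KO libraries, with a log2 change of 0.01 ± 0.10 (SE; adjusted p = 0.955 in edgeR). Top2a, which encodes the topoisomerase that untangles sister chromatids, was at 1231, 1196 and 1181 CPM in WT and 1065, 935 and 961 CPM in KO libraries (log2 change -0.29 ± 0.09, adjusted p = 0.0425 in edgeR). The Mki67 groups overlapped and the Top2a groups did not. The count ratio of Top2a to Mki67 in the same library was 0.641 ± 0.0281 in WT and 0.522 ± 0.0326 in KO libraries. Of the 12 ratios computed between members, 8 were lower in each KO than in each WT library and 4 overlapped (Ccnb2 to Ccnb1, Nuf2 to Ndc80, Ect2 to Prc1 and Bora to Plk1). The pairs were chosen after their values were seen and carry no test. Per kilobase of annotated exon, Mki67 (187 ± 11.6 CPM per kb in WT) and Top2a (133 ± 2.82) were the most abundant of the 32, followed by Ccnb2 (75.6 ± 2.67) and Cdc20 (69.9 ± 3.56), and Cdc25c was the least (5.46 ± 0.564).

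Bub1 and Ccnb2 were called lower under 16 of 16 other ways of processing the counts, Hmmr under 15, Birc5 under 13, Bub1b under 11 and Bora under 10. Ccnb1 was called under 8, Cdca3, Aurkb, Ect2 and Top2a under 7 each, and Cdc20 under 5. No alternative changed the sign of any of the 12. The median over all tested genes moved from 0.01 to 0.15 with upper-quartile factors and to 0.11 with library totals. These factors shift all genes alike, so the median of the 32 stayed 0.17 below that of all genes by construction. That distance was 0.082 with the 1 CPM filter and 0.256 with no low-count filter. It is a distance from all genes only: with TMM and 6 libraries, genes in the CPM range of the 32 had a median of -0.17, beside -0.16 for the 32. Of the 20 genes not called, Aurka passed under 5 alternatives, Cdk1 under 3, Cenpf under 2, and Ttk and Kif23 under 1 each.

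**Figure D4:**
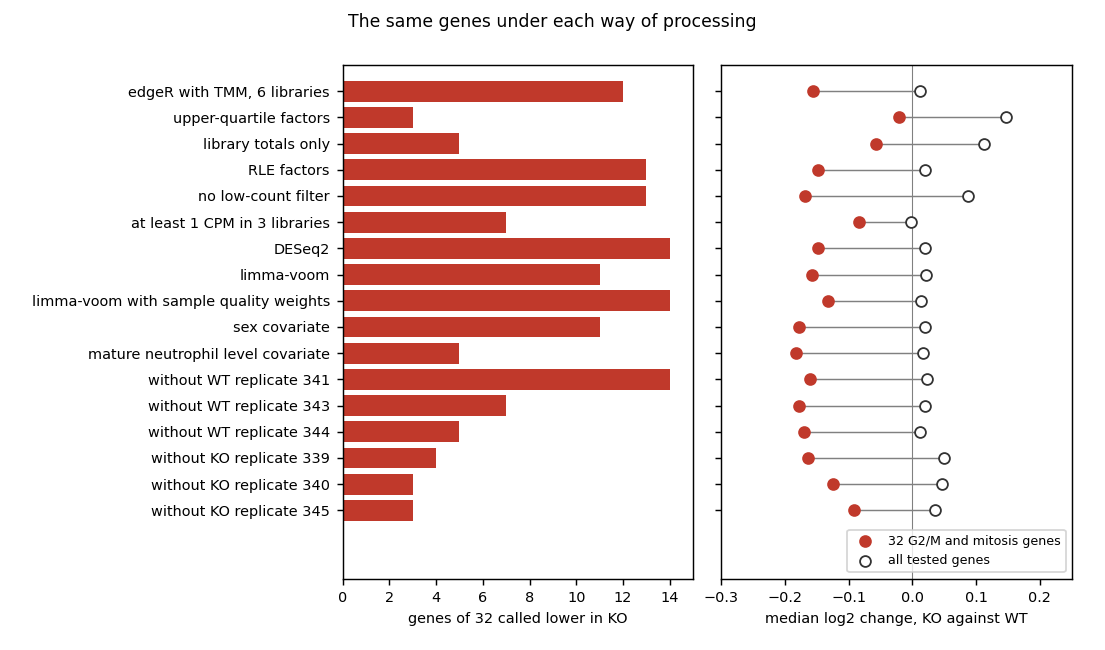
Number of the 32 genes called lower in KO libraries (left, bars from 0) and median log2 change of the 32 genes and of all tested genes (right) under each way of processing. The bars run from 3 to 14, and the filled points lie left of the open points in every row. Tested genes in the CPM range of the 32 are not drawn. With TMM and 6 libraries their median was -0.17, beside -0.16 for the 32.

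Single libraries moved many of the genes together. Relative to the WT mean, the median of the 32 genes stood on the log2 scale between -0.03 (WT_344) and 0.03 (WT_341) in the WT libraries, and at -0.10 in KO_339, -0.16 in KO_340 and -0.23 in KO_345. KO_339 held the highest KO value of 29 of the 32 genes and KO_345 the lowest of 25, and WT_341 held the highest WT value of 17. By Xist and Y-linked counts, WT_341, KO_339 and KO_340 were male and WT_343, WT_344 and KO_345 female, so sex was not balanced between the genotypes. With sex as a covariate, 11 of the 32 genes were called lower and 0 higher, beside 17.3% of all tested genes lower. The part of sex was not tested further. The mature neutrophil sum was highest in WT_341 (38980 CPM) among WT and in KO_339 (61310 CPM) among KO libraries, and its lowest values were 12413 CPM in WT_343 and 46778 CPM in KO_345. With the mean log2 level of these markers as a covariate, 5 of the 32 genes were called lower and 0 higher, with a median of -0.18, while over all genes 1527 were called in place of 5659. The 5 were Bub1, Ccnb2, Bub1b and Birc5 of the 12 called without the covariate, and Kif23 (log2 change -0.37, adjusted p = 0.0294 in edgeR). The 3 highest values of the covariate's sum are the 3 KO libraries, and the part of the neutrophil level in the result was not tested further. The neutrophil marker gene Ly6g was not analysed here.

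Other genes of cell division were read from 11 lists of regulators, kinetochore, chromosome, spindle and cytokinesis proteins. Of 164 tested, 59 were lower and 6 higher (36.0% and 3.66%), with a median log2 change of -0.15. Among tested genes in the CPM range of the 32, 35.0% were lower and 8.80% higher with a median of -0.17. Among all tested genes the shares were 19.9% and 16.0%. The share of lower calls was thus near that of genes in the range of the 32. Some genes of these lists lay below that range, such as Stra13 (24.1 CPM in WT and 14.4 CPM in KO libraries) and Oip5 (18.3 and 11.5 CPM). No share was computed at the lists' own levels. The counts of the single lists below are read beside these shares, and no list was tested against other genes. The anaphase-promoting complex had 8 of 16 lower and 0 higher, with the largest drops in its core subunit genes Cdc23 (86.7 ± 15.7 to 41.9 ± 1.45 CPM, log2 change -1.05), Cdc16 (-0.76) and the scaffold gene Anapc1 (-0.68). The list named inner centromere CENP proteins, which holds CENP proteins and factors that load the centromeric histone, had 9 of 21 lower and 0 higher. Those with the smallest adjusted p were Stra13, the older symbol of Cenpx (log2 change -0.75), Oip5 (-0.67), which helps load the centromeric histone, and Cenph (-0.51). The list named outer kinetochore complexes had 4 of 12 lower and 0 higher, among them Pmf1 (-0.69) and Spc24 (-0.57), a partner of NUF2 and NDC80. Cenpv (-0.97), also put on that list, was at only 6.89 ± 1.46 and 3.53 ± 0.666 CPM, below the CPM range of the 32.

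Checkpoint proteins beside BUB1 had 5 of 11 lower and 2 higher. Zwilch (log2 change -0.66) and Kntc1 (-0.42) fell, while Zw10 (0.26), the third subunit of the same complex, which brings dynein to kinetochores, rose. Trip13 (-0.56), which disassembles the checkpoint complex, fell, and Sgol2 (0.33), a shugoshin that protects centromeric cohesion, rose. Spindle and centrosome genes had 15 of 31 lower and 0 higher, with the augmin subunits Haus1 (33.1 ± 2.87 to 17.5 ± 0.988 CPM, log2 change -0.92) and Haus4 (-0.70) and the centrosomal Cdk5rap2 (-0.43). Condensin had 4 of 8 lower, including Ncapd2 (-0.34), Ncaph2 (-0.32) and Ncapg2 (-0.31). Cohesin with separase had 5 of 14 lower, including the ring subunit genes Smc1a (-0.32) and Smc3 (-0.27) and the separase gene Espl1 (-0.27). No gene of these last 3 lists was called higher. Cytokinesis genes had 1 of 13 lower, Iqgap3 (-0.27), with a median of 0.03.

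Genes that rose were few. Gtse1, a microtubule-bound protein that restrains p53 in G2, rose from 50.6 ± 2.69 to 91.8 ± 4.60 CPM (log2 change 0.86, adjusted p = 0.0015 in edgeR), while the CDK1 inhibitor gene Wee1 (-0.24) and the CDK1 subunit gene Cks1b (-0.34) fell. The list of CDK1 regulators, which holds Gtse1, Wee1 and Cks1b, had 2 of 13 lower and 1 higher. The list named other mitotic kinesins had 2 of 11 lower and 3 higher, with a median log2 change of -0.01. Kif18b (0.47), a motor of astral microtubules, and the minus-end motor gene Kifc1 (0.33) rose. Kif3b (0.46), also put on that list, passed narrowly as higher (adjusted p = 0.0481 in edgeR), and a part of it in mitosis was not tested. Kif15 (-0.57), which backs up KIF11 at the spindle, fell from 313 ± 8.51 to 211 ± 7.51 CPM, and Kif2c (-0.27) also fell. Zw10, Sgol2, Kif3b and Kif2c were named after their values were seen. Among the regulators of CHR promoters 4 of 14 were lower and 0 higher: E2f4 (-0.52), the E2F of the repressive DREAM complex, the B-MYB gene Mybl2 (-0.43), the MuvB gene Lin9 (-0.40) and the MuvB subunit gene Rbbp4 (-0.27), the last named after its value was seen. DNA replication and G1/S genes had 36 of 46 lower and 0 higher with a median of -0.44, against 12 of 32 and -0.16 for the G2/M and mitosis genes; the difference between the lists was not tested. Examples were Mcm7 (log2 change -0.73), a subunit of the replicative helicase, Cdc6 (-0.78), which loads it, and the primase gene Prim2 (-0.63).

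**Figure D5:**
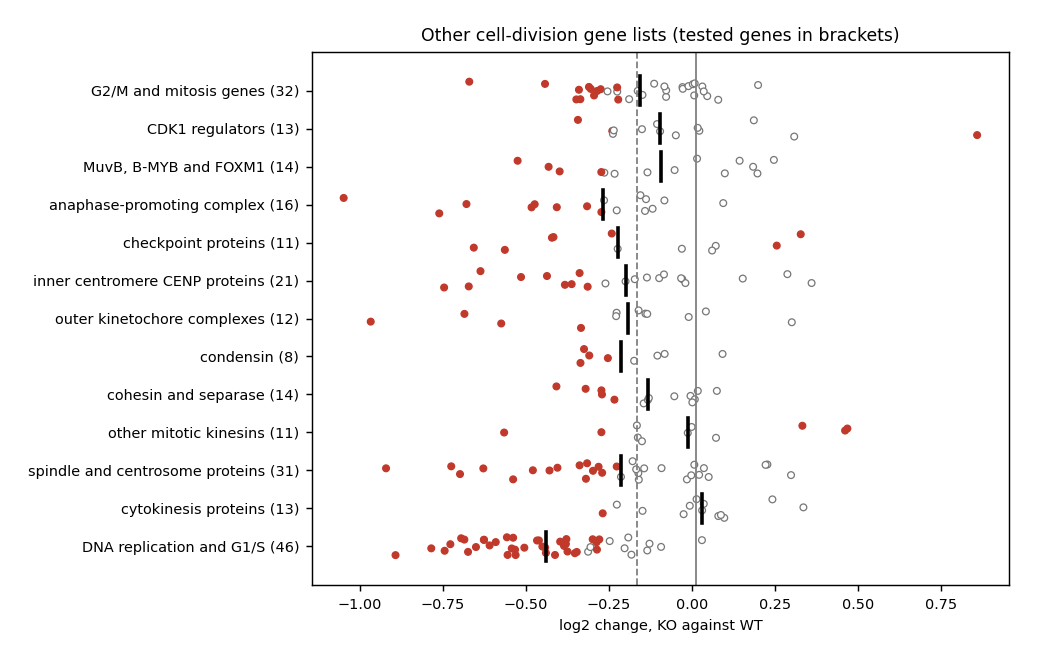
Log2 change, KO against WT, of every tested gene of the 32 and of 12 further lists. Filled points passed an adjusted p of 0.05 and black bars are list medians. The solid line is the median of all tested genes (0.01). The dashed line is the median of tested genes in the CPM range of the 32 (-0.17). Replication genes lie furthest left, with a median of -0.44, and cytokinesis genes around 0.

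Some counts may be shared with other genes. Of the 32, 10 had at least 500 bases of transcript with 90% or more identity to another GENCODE transcript. For Ccnb1 these were 5 pseudogenes, the closest at 99.2% identity over 51.7% of the transcript, and for Cdc20 and Plk1 1 pseudogene each. Ndc80 shared 60.7% of its transcript at 92.5% identity with 2700099C18Rik, a transcribed pseudogene. Kif20a shares 1276 bases with the oppositely directed Cdc23, whose level fell, and Nusap1 overlaps Oip5, which also fell. Ccna2 shares 513 bases with Exosc9, which had 4939 to 8243 counts in WT and 3982 to 4358 in KO libraries. Prc1 shares 670 bases with Rccd1 (1652 to 2114 and 1415 to 1855 counts), and Ube2c shares 555 bases with Tnnc2, which had at most 51 counts in a library. Without a stated strand setting the reads of such pairs cannot be told apart with certainty. The 32 genes lie on 14 chromosomes, with 6 on chromosome 2 and 4 on chromosome 11.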

How the data were processed

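RNA-seq counts of 3 WT and 3 KO libraries were analysed. The deposited table holds raw read counts per gene symbol, with no normalization by the authors. Per the submitters' processing notes FastQC, Trimmomatic, STAR and HTSeq were used (no versions given) with build mm10, and per the labels' protocols libraries were strand-specific, from messenger RNA, read as pairs of 75 bp. Annotation, strand setting and multiply mapped reads were not given in the sources used here. Groups came from the sample titles. No column belonged to other samples.

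The test was edgeR's (4.0.16, R 4.3.3): filterByExpr (with minimum count 10 and minimum total 15), TMM, robust glmQLFit and glmQLFTest, with Benjamini-Hochberg adjustment over 15742 genes and a threshold of 0.05; the test was tried on simulated counts. Alternatives were upper-quartile, library-total and RLE scaling, other filters, DESeq2 1.42.0, limma-voom (limma 3.58.1) without and with sample weights, sex (from Xist and Y-linked counts) or the neutrophil level as a covariate, and leaving out each library. P-values measure the spread between individual mice. Exon lengths, positions and transcript identity came from GENCODE M21 (GRCm38), promoters from RefSeq (GRCm38.p6), matched by symbol. Named were the 32 genes, Ints11 and, per list, up to 3 genes past the threshold with the smallest adjusted p. The members, lists and motifs were chosen with earlier results of these data known. Lists are given by counts and medians, with no test of a list.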

Additional observations from a re-analysis of the deposited data

How the results depend on the processing

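With all 6 libraries, the count of 12 G2/M and mitosis genes lower became 3 with upper-quartile factors, 5 by library totals only, 7 with the filter of at least 1 CPM in 3 libraries and 5 with the neutrophil covariate, and 11 to 14 in the other alternatives; leaving out single libraries gave 3 to 14. The count of genes higher was 0, but 1 (Cenpf) with limma-voom and sample quality weights, and 0 to 1 when single libraries were left out. Their median of -0.16 became -0.021, -0.056 and -0.083 with the first 3 of these settings and -0.18 to -0.092 when single libraries were left out. Over all genes 5659 calls became 1527 with the neutrophil covariate and 2302 to 7879 when single libraries were left out. The share of all tested genes called lower was 19.9% with TMM and all 6 libraries. It was 12.3% with upper-quartile factors, 14.1% by library totals and 19.7% with the 1 CPM filter. With the neutrophil covariate it was 6.04%, and 7.95% to 26.6% when single libraries were left out. The share of higher calls among all calls was 44.5%, but 58.8% when only library totals were scaled and 64.2% by upper quartiles.

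Signs changed only for genes that were not called. Upper-quartile factors gave log2 changes of 0.10 for Cdc25c, 0.058 for Plk1, 0.021 for Cdca8, 0.11 for Cenpe, 0.12 for Nuf2, 0.057 for Tpx2 and 0.047 for Kif23. Scaling by library totals gave 0.069 for Cdc25c, 0.024 for Plk1, 0.072 for Cenpe, 0.088 for Nuf2, 0.022 for Tpx2 and 0.014 for Kif23. The 1 CPM filter gave 0.043 for Cdc25c, 0.045 for Cenpe and 0.062 for Nuf2. Sample quality weights in limma-voom gave 0.046 for Cdc25c, 0.0067 for Cenpe and 0.027 for Nuf2. The neutrophil covariate gave -0.12 for Cenpf, -0.18 for Ndc80, -0.14 for Nusap1, -0.18 for Prc1 and -0.12 for Mki67. Dropping the low-count filter gave -0.0082 for Ndc80, -0.012 for Prc1 and -0.0057 for Mki67. The sex covariate gave -0.057 for Ndc80, -0.061 for Prc1 and -0.045 for Mki67. Leaving out single libraries gave -0.080 to 0.049 for Cdc25c, -0.14 to 0.0049 for Plk1, -0.056 to 0.0038 for Cenpe, -0.038 to 0.046 for Nuf2, -0.043 to 0.083 for Ndc80, -0.0042 to 0.087 for Kif11, -0.19 to 0.015 for Kif23, -0.053 to 0.085 for Prc1 and -0.031 to 0.090 for Mki67. The cause of these shifts was not tested beyond the shift of all genes that scaling brings. No paired analysis was possible because the genotypes share no replicate numbers. The 32 genes had at least 3426 counts in every library.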
